A study of Mus musculus with 8 samples.

Results

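The genes described here are 31 cell proliferation genes, listed by symbol: 10 of DNA replication (Rrm1, Rrm2, Mcm2, Mcm3, Mcm4, Mcm5, Mcm6, Mcm7, Pcna and Tyms) and 21 of mitosis (Mki67, Top2a, Ccnb1, Ccnb2, Cdk1, Bub1, Bub1b, Birc5, Aurka, Aurkb, Ccna2, Cdc20, Plk1, Tpx2, Kif11, Kif20a, Cenpe, Cenpf, Nusap1, Prc1 and Ttk). All 31 were found among the 23212 gene symbols counted. Their transcripts were counted by RNA-seq in whole perigonadal fat, the visceral depot beside the gonads, from 4 mice with an adipocyte-specific gene knockout and 4 wild-type mice, 1 library per mouse. All 8 mice were C57BL/6, were 20 weeks old, were matched for age and weight per the labels, and had eaten a 45% fat diet for 12 weeks from the age of 8 weeks, so both genotypes were measured after fat feeding and no lean group was analysed here. The knockout is limited to adipocytes per the labels, and the promoter that drives it is not given in the sources used here.

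Proliferating cells duplicate their DNA in S phase and divide in mitosis, and each step has its own set of transcripts. Replication genes encode the helicase that opens DNA, the clamp that holds the polymerase and the enzymes that make deoxynucleotides. They are switched on at the start of S phase, typically through E2F sites. Mitosis genes encode cyclins, kinases, motors and kinetochore proteins, and they peak in the late phases of the cycle, typically through CCAAT boxes and a cell cycle element called CHR. Mature adipocytes rarely divide. In obese visceral fat, macrophages are known to proliferate locally, and adipocyte progenitors, endothelial cells and lymphocytes also divide. Cd68, a glycoprotein of lysosomes and endosomes, is a common marker of macrophages.

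The libraries held 46444435 to 51431956 counts each, and 14493 genes had enough counts to be tested, including all 31 proliferation genes. Levels are CPM, that is counts divided by the library total after TMM scaling and put on a common scale for all libraries. Of the marker lists, that of adipocytes had the highest sum in all 8 libraries. Its 10 genes summed to 43050 to 56840 CPM in knockout fat and 39370 to 54020 CPM in wild-type fat. Knockout library 2 and wild-type library 3 stood apart through genes of a ciliated, secretory epithelium. Cuzd1, a secreted reproductive tract protein, reached 42.6 CPM in knockout library 2 and 13.2 CPM in wild-type library 3 and had 1.44 CPM as its next highest value. The cadherin Cdh1 reached 9.49 CPM in knockout library 2 and 1.97 CPM in wild-type library 3, and its next highest value was 0.294 CPM. Keratins of the same list did not set the pair apart. Krt5 was at 0 CPM in both, and Krt8 had 24.0 CPM in knockout library 2 and 11.5 CPM in wild-type library 3, with its highest value, 29.5 CPM, in wild-type library 2. For the 31 genes, median fold changes, counts at an unadjusted p and median correlations with Cd68 are also given without this pair. Class means by library, marker lists and genes outside the 31 are given only with it. Whole tissue was sequenced, so fewer cells of a type and less RNA per cell cannot be told apart in any value below.

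All 31 proliferation genes had a higher fitted level in knockout than in wild-type fat, but none passed the test over all genes. The mitosis genes differed more than the replication genes: the median log2 fold change, knockout over wild type, was 0.66 over 21 mitosis genes (from 0.18 for Aurkb to 0.91 for Birc5) and 0.18 over 10 replication genes (from 0.04 for Rrm1 to 0.43 for Rrm2). Over all 14493 genes tested the median was 0.01, and 53.1% of genes had a log2 fold change above 0. The proliferation genes varied together over the 8 mice, so they do not count as 31 independent observations. No proliferation gene passed a Benjamini-Hochberg adjusted p of 0.05 in edgeR's quasi-likelihood test (adjusted p = 0.9999 for every one), where 2 genes of all tested passed (0.0138%), both lower in knockout. At an unadjusted p under 0.05, 6 proliferation genes were higher in knockout, against 169 of all genes tested (1.17%): Cdc20, Tpx2, Plk1, Top2a and Mki67 of mitosis and Mcm3 of replication. With DESeq2 the count was 10 (217 of all genes), and with each library left out in turn it ranged from 0 to 18, so it depends on single mice. It was 0 without knockout library 4 (0.858% of all genes) or wild-type library 1 (0.699%). It was 1 without wild-type library 2 (0.918%) or 4 (0.689%), and 2 without knockout library 1 (1.28%) or 2 (1.96%). The count rose to 13 without wild-type library 3 (2.04% of all genes) and 18 without knockout library 3 (2.36% of all genes). With knockout library 2 and wild-type library 3 both left out the count was 11, where the share of all genes had grown to 3.89%, and the smallest adjusted p was 0.870. The replication median was 0.11 without knockout library 2, 0.10 without knockout library 4, 0.12 without wild-type library 1 and 0.29 without knockout library 3. Leaving out both knockout library 2 and wild-type library 3 gave medians of 0.90 for mitosis and 0.12 for replication genes.

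Of the 21 mitosis genes, 18 had a larger log2 fold change than Rrm2, the replication gene with the largest. Of the 10 replication genes, 5 had a smaller log2 fold change than Aurkb, the mitosis gene with the smallest. A fold of 1.5 or more was reached by 13 mitosis genes and by 0 replication genes. The mitosis genes were also less precisely measured, with standard errors (SE) of 0.23 to 0.45 on the log2 scale against 0.092 to 0.25 for replication genes, so the 2 classes can be ordered by their medians but most single genes of the 2 classes cannot. No test compared the classes, since the genes were chosen with results of these data known.

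**Figure D1:**
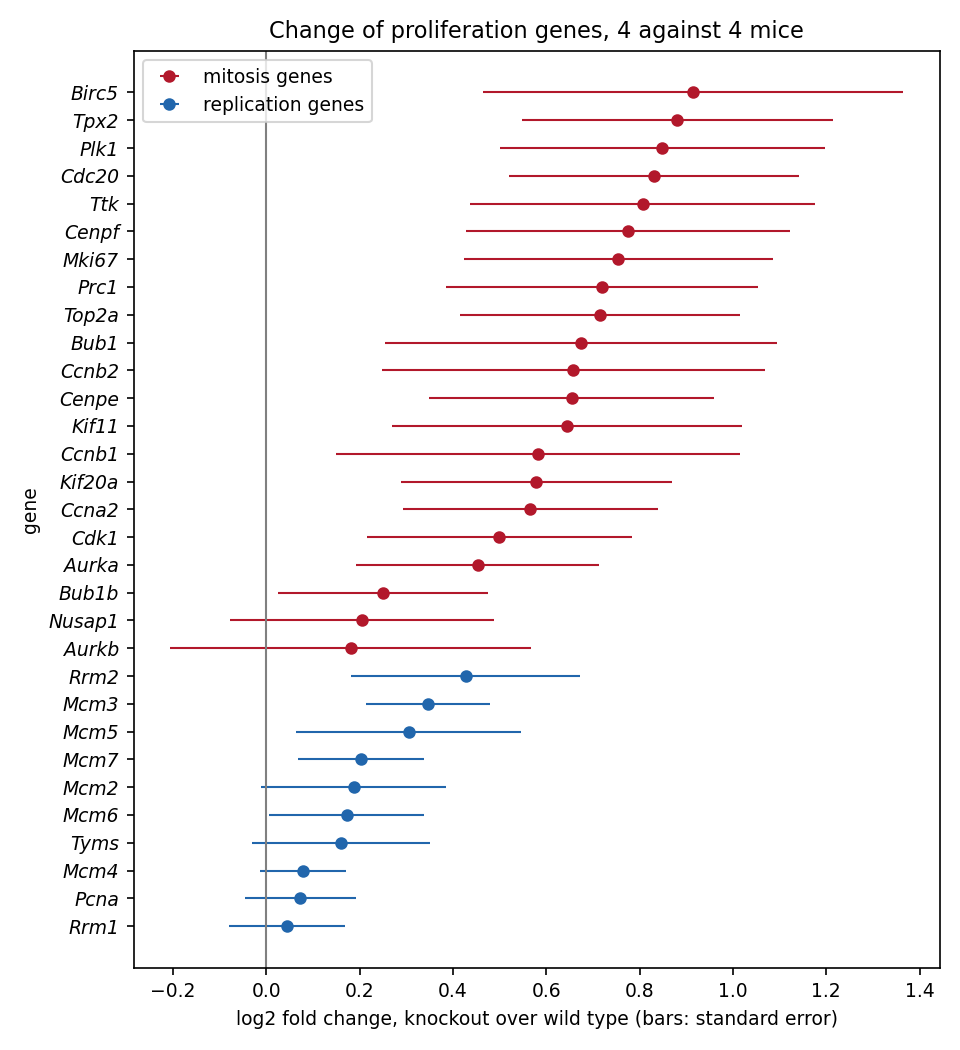
Log2 fold change of each of the 31 genes (points, horizontal axis), knockout over wild type, with its standard error (bars), mitosis genes above and replication genes below. All 31 points lie above 0, from 0.04 for Rrm1 to 0.91 for Birc5, and the mitosis genes lie mostly to the right of the replication genes.

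The class means differed between mice of the same genotype. The mean log2 CPM of the 21 mitosis genes was 2.21, 1.90, 1.13 and 2.10 in knockout libraries 1 to 4, against 1.14, 1.09, 1.76 and 0.93 in wild-type libraries 1 to 4. Knockout mice 1, 2 and 4 were above all wild-type mice, knockout mouse 3 lay among the low wild-type mice, and wild-type mouse 3 lay close to the high knockout mice, so the genotypes overlapped. The group means were 1.83 ± 0.49 in knockout and 1.23 ± 0.37 in wild type (SD, n = 4 each). For the 10 replication genes the mean log2 CPM was 3.58, 3.71, 3.29 and 3.78 in knockout libraries 1 to 4, against 3.32, 3.46, 3.52 and 3.30 in wild-type libraries 1 to 4. The same 3 knockout mice were the highest, and knockout mouse 3 was the lowest of all 8. The group means were 3.59 ± 0.21 in knockout and 3.40 ± 0.11 in wild type (SD, n = 4 each). Summed CPM of the mitosis genes was 94.3 ± 27.4 in knockout and 61.4 ± 17.2 in wild type, and that of the replication genes 136 ± 16.2 in knockout and 121 ± 6.10 in wild type (SD, n = 4 each).

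**Figure D2:**
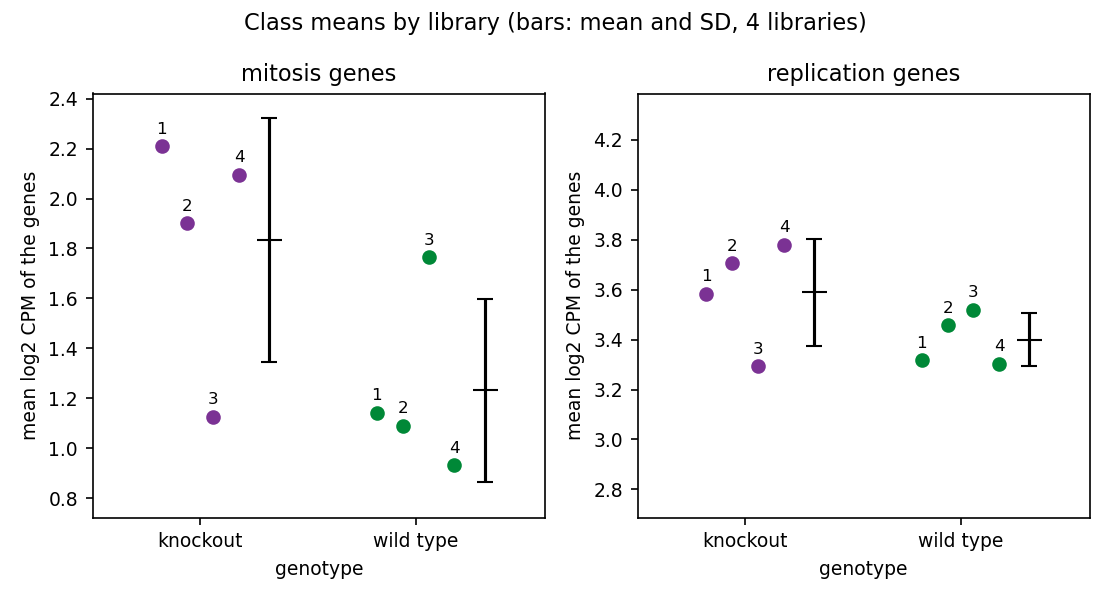
Mean log2 CPM of the mitosis genes (left) and the replication genes (right) in each library (points, numbered by mouse), with the group mean and SD of 4 libraries as bars, knockout left of wild type; each vertical axis covers the same span of log2 CPM. Knockout mouse 3 lies low in both panels and wild-type mouse 3 is the highest wild-type mouse in both.

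The ratio of mitosis to replication transcripts, taken as the difference of the 2 class means, was -1.38, -1.80, -2.17 and -1.68 on the log2 scale in knockout libraries 1 to 4, against -2.18, -2.37, -1.76 and -2.37 in wild-type libraries 1 to 4. It averaged -1.76 ± 0.33 in knockout and -2.17 ± 0.29 in wild type (SD, n = 4 each), with overlap through knockout mouse 3 and wild-type mouse 3. No wild-type library held the highest level of any of the 31 genes. Among mitosis genes the highest level was in knockout library 1 for 9, in knockout library 4 for 7 and in knockout library 2 for 5. The lowest level was in wild-type library 4 for 11 mitosis genes and in knockout library 3 for 6. Among replication genes the highest level was in knockout library 4 for 4, in knockout library 1 for 3 and in knockout library 2 for 3, and the lowest was in knockout library 3 for 5.

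**Figure D3:**
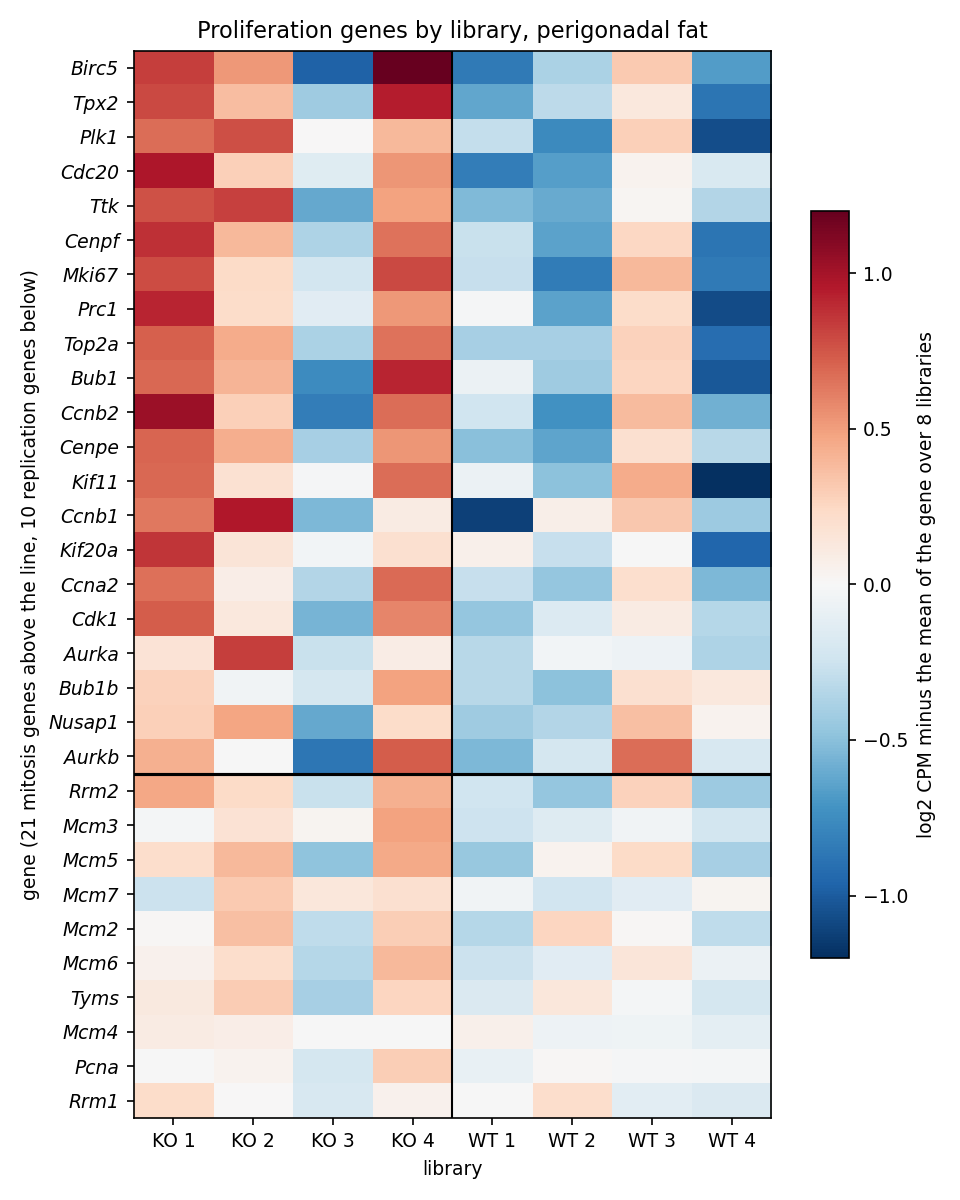
Log2 CPM of each gene minus its own mean over the 8 libraries (colour), knockout libraries left of the vertical line and wild-type libraries right of it, mitosis genes above the horizontal line and replication genes below. Knockout libraries 1, 2 and 4 and wild-type library 3 are red for most mitosis genes, knockout library 3 and wild-type libraries 1, 2 and 4 are mostly blue, and the replication genes are paler.

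Cyclins and their kinase set entry into mitosis. Cdk1, the mitotic cyclin-dependent kinase, had 7.44, 4.90, 3.05 and 6.73 CPM in knockout libraries 1 to 4, against 3.26, 4.02, 4.83 and 3.54 CPM in wild-type libraries 1 to 4. Knockout mice 1, 2 and 4 were above all wild-type mice, mouse 2 only narrowly, and knockout mouse 3 was below all of them. Its log2 fold change was 0.50 (SE 0.28). Ccna2, cyclin A, averaged 6.71 ± 2.15 CPM in knockout and 4.53 ± 1.13 CPM in wild type, and Ccnb2, a B-type cyclin, 3.33 ± 1.53 CPM in knockout and 2.11 ± 0.777 CPM in wild type (SD, n = 4 each). Ccna2 shares 378 exonic bases with Exosc9, so its counts are less certain. Ccnb1, the main mitotic cyclin, had few counts, with 1.19, 1.48, 0.526 and 0.819 CPM in knockout libraries 1 to 4, against 0.351, 0.804, 0.955 and 0.566 CPM in wild-type libraries 1 to 4, and its log2 fold change of 0.58 had an SE of 0.43.

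Mki67 and Top2a, widely used marks of cycling cells, drew the most counts of the mitosis genes. Mki67, which coats mitotic chromosomes, had 16.8, 11.5, 8.42 and 16.9 CPM in knockout libraries 1 to 4, against 8.07, 5.47, 12.8 and 5.43 CPM in wild-type libraries 1 to 4. Knockout mice 1 and 4 were above all wild-type mice, knockout mouse 2 was above all but wild-type mouse 3, and knockout mouse 3 lay close to wild-type mouse 1. The log2 fold change was 0.75 (SE 0.33, unadjusted p = 0.0495 in the edgeR quasi-likelihood test), and 1.15 without the pair of libraries with epithelial genes. Top2a, the topoisomerase that untangles sister chromatids, had 13.95, 11.5, 6.53 and 13.4 CPM in knockout libraries 1 to 4, against 6.44, 6.43, 10.3 and 4.50 CPM in wild-type libraries 1 to 4. For Top2a, knockout mice 1, 2 and 4 were above all wild-type mice, and knockout mouse 3 was barely above wild-type mice 1 and 2. The log2 fold change was 0.71 (SE 0.30, unadjusted p = 0.0417 in the edgeR quasi-likelihood test).

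Regulators of the spindle and of chromosome separation gave both the largest and the smallest differences of the mitosis genes, from 0.91 for Birc5 to 0.18 for Aurkb. Birc5, survivin, a subunit of the chromosomal passenger complex, had 4.61, 3.73, 1.33 and 6.02 CPM in knockout libraries 1 to 4, against 1.44, 2.00, 3.23 and 1.63 CPM in wild-type libraries 1 to 4. Its log2 fold change of 0.91 was the largest of the 31 genes and had the largest SE, 0.45. Knockout mice 1, 2 and 4 were above all wild-type mice, and knockout mouse 3 had the lowest value of all 8 mice. Tpx2, which activates Aurora A on spindle microtubules, had 6.61, 4.94, 2.84 and 7.35 CPM in knockout libraries 1 to 4, against 2.48, 3.08, 4.17 and 2.07 CPM in wild-type libraries 1 to 4. Knockout mouse 3 lay within the wild-type range and the other knockout mice lay above it, and the log2 fold change was 0.88 (SE 0.33, unadjusted p = 0.0268 in the edgeR quasi-likelihood test). Cdc20, the activator of the anaphase-promoting complex, had 4.61, 2.86, 2.13 and 3.40 CPM in knockout libraries 1 to 4, against 1.32, 1.49, 2.42 and 2.07 CPM in wild-type libraries 1 to 4. Only knockout mouse 3 and wild-type mouse 3 overlapped, and the log2 fold change was 0.83 (SE 0.31, unadjusted p = 0.0255 in the edgeR quasi-likelihood test), the smallest p among the 31 genes. Cdc20 shares 16 exonic bases with Elovl1.

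Plk1, Polo-like kinase, had 2.43, 2.61, 1.54 and 2.01 CPM in knockout libraries 1 to 4, against 1.26, 0.902, 1.87 and 0.733 CPM in wild-type libraries 1 to 4. Only knockout mouse 3 was below a wild-type mouse, and that was wild-type mouse 3. The log2 fold change was 0.85 (SE 0.35, unadjusted p = 0.0377 in the edgeR quasi-likelihood test). Ttk, the kinase at the head of the spindle checkpoint, had a log2 fold change of 0.81 (SE 0.37) and averaged 1.11 ± 0.409 CPM in knockout and 0.633 ± 0.130 CPM in wild type (SD, n = 4 each). Of its checkpoint partners, Bub1 averaged 1.496 ± 0.617 CPM in knockout and 0.936 ± 0.332 CPM in wild type, while Bub1b, the kinase-like checkpoint protein BubR1, differed least. Bub1b had 6.57, 5.27, 4.67 and 7.55 CPM in knockout libraries 1 to 4, against 4.29, 3.84, 6.18 and 5.93 CPM in wild-type libraries 1 to 4. Both groups spread over a wide, shared range, and its log2 fold change was 0.25 (SE 0.23). The Aurora kinases were not alike in their spread. Aurka, the spindle pole kinase, was highest in knockout library 2 at 5.50 CPM and at 2.57 to 3.46 CPM in the other knockout libraries, against 2.39 to 3.02 CPM in wild type. Aurkb, the kinase of the passenger complex, had 3.52, 2.61, 1.43 and 4.32 CPM in knockout libraries 1 to 4, against 1.79, 2.25, 4.15 and 2.28 CPM in wild-type libraries 1 to 4, and its log2 fold change of 0.18 (SE 0.39) became -0.064 without knockout library 4.

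Motors, bundlers and kinetochore proteins of the dividing spindle lay between these. Cenpf, a kinetochore protein, had a log2 fold change of 0.77 (SE 0.35), Prc1, which bundles microtubules of the spindle midzone, 0.72 (SE 0.33), Cenpe, a kinetochore motor, 0.65 (SE 0.31) and Kif11, the motor that pushes spindle poles apart, 0.64 (SE 0.38). For Cenpe the libraries held 3.60, 3.00, 1.68 and 3.19 CPM in knockout mice 1 to 4, against 1.57, 1.43, 2.53 and 1.76 CPM in wild-type mice 1 to 4, with knockout mouse 3 below wild-type mice 3 and 4 and the other knockout mice above all wild-type mice. Kif20a, a kinesin of cytokinesis, averaged 4.20 ± 1.25 CPM in knockout and 2.81 ± 0.792 CPM in wild type (SD, n = 4 each), but 1302 of its exonic bases are shared with Brd8 or Cdc23, so its counts are uncertain. Nusap1, which stabilises spindle microtubules, averaged 4.06 ± 1.16 CPM in knockout and 3.52 ± 0.919 CPM in wild type (SD, n = 4 each) and shares 208 exonic bases with Oip5.

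The replication genes were steadier from mouse to mouse. The 6 subunits of the MCM helicase, which opens the double helix at replication forks, had log2 fold changes of 0.08 to 0.35. Mcm3 had 13.1, 14.96, 13.6 and 18.5 CPM in knockout libraries 1 to 4, against 11.2, 11.9, 12.9 and 11.4 CPM in wild-type libraries 1 to 4. It was the only gene of the 31 with every knockout mouse above every wild-type mouse, a pattern that 90 of the 14493 genes tested had (0.621%). The closest values were 13.1 CPM in knockout mouse 1 and 12.9 CPM in wild-type mouse 3. The log2 fold change was 0.35 (SE 0.13, unadjusted p = 0.0284 in the edgeR quasi-likelihood test). Mcm5 had 9.52, 10.8, 5.90 and 11.3 CPM in knockout libraries 1 to 4, against 6.00, 8.45, 9.66 and 6.22 CPM in wild-type libraries 1 to 4, a wider and overlapping spread, and its log2 fold change was 0.31 (SE 0.24). Mcm6 had 16.5, 18.5, 12.5 and 20.9 CPM in knockout libraries 1 to 4, against 13.3, 14.5, 17.7 and 15.2 CPM in wild-type libraries 1 to 4. Knockout mouse 3 was the lowest of all 8 and the log2 fold change was 0.17 (SE 0.17).

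Mcm4 and Mcm7 followed the mitosis genes less closely over the 8 libraries than Mcm5 and Mcm6 did. Mcm4 was nearly flat, with 16.2, 15.9, 15.1 and 15.02 CPM in knockout libraries 1 to 4, against 15.8, 14.5, 14.6 and 13.97 CPM in wild-type libraries 1 to 4, a log2 fold change of 0.08 (SE 0.092). Mcm7 had 14.6, 21.7, 19.1 and 19.9 CPM in knockout libraries 1 to 4, against 16.9, 14.8, 15.8 and 17.8 CPM in wild-type libraries 1 to 4. For Mcm7 knockout mouse 1, the mouse with the most mitosis transcripts, was the lowest of all 8 and knockout mouse 3 was above all wild-type mice, the reverse of the mitosis pattern in these mice. Its log2 fold change was 0.20 (SE 0.14). Mcm2 averaged 9.70 ± 1.96 CPM in knockout and 8.51 ± 1.72 CPM in wild type (SD, n = 4 each).

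Pcna, the sliding clamp of the replicative polymerases, had 16.5, 17.1, 14.4 and 20.5 CPM in knockout libraries 1 to 4, against 15.6, 16.8, 16.4 and 16.3 CPM in wild-type libraries 1 to 4, and its log2 fold change of 0.07 (SE 0.12) rested on knockout library 4, without which it was -0.031. The subunits of ribonucleotide reductase, which makes deoxynucleotides, parted from each other. Rrm2, the small subunit made in S phase, had 5.21, 4.42, 3.14 and 5.08 CPM in knockout libraries 1 to 4, against 3.20, 2.73, 4.56 and 2.79 CPM in wild-type libraries 1 to 4, with the same high and low mice as the mitosis genes and a log2 fold change of 0.43 (SE 0.25). Rrm1, the large subunit, had 26.4, 22.7, 19.8 and 23.5 CPM in knockout libraries 1 to 4, against 22.6, 26.3, 20.7 and 20.0 CPM in wild-type libraries 1 to 4, and its log2 fold change of 0.04 (SE 0.12) changed sign without knockout library 1 (-0.027) and without wild-type library 4 (-0.0029). Tyms, thymidylate synthase, averaged 5.86 ± 1.19 CPM in knockout and 5.24 ± 0.588 CPM in wild type (SD, n = 4 each).

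Per kilobase of exon, replication transcripts were more abundant than mitosis transcripts. The mean level over the 8 libraries ran from 1.46 (Tyms) to 13.3 CPM per kb (Pcna) for replication genes, median 4.44, and from 0.218 (Cenpf) to 2.00 CPM per kb (Ccna2) for mitosis genes, median 1.06. Of the replication genes, 8 lay above the highest mitosis gene, and of the mitosis genes, 15 lay below Tyms. The spread between mice ran the other way. The coefficient of variation of CPM within a genotype had a median over replication genes of 18.3% in knockout and 11.6% in wild type, and over mitosis genes of 32.2% in knockout and 35.0% in wild type. Ccnb1 had 17 to 72 counts in a library and Mki67 had 259 to 849, so counting error adds to the spread of the mitosis genes with the fewest counts and is small for the others beside the differences between mice.

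The mitosis genes varied together over the 8 libraries. Between pairs of them Pearson's r of log2 CPM had a median of 0.81 and was above 0 for 210 of 210 pairs, and on deviations from the genotype means it had a median of 0.75 and was above 0 for 209 of 210 pairs, so the shared variation was present among mice of the same genotype. Between pairs of replication genes the median was 0.54, with 43 of 45 pairs above 0, and 0.44 on deviations, with 34 of 45 above 0. These correlations describe 8 libraries that share the same mice, and they carry no test. The replication genes varied in how closely they followed the mitosis genes. With the mean profile of the mitosis genes r was 0.98 for Rrm2, 0.86 for Mcm5 and 0.80 for Mcm6, 0.60 to 0.71 for Tyms, Mcm3, Mcm2 and Pcna, 0.54 for Mcm4, 0.41 for Rrm1 and 0.09 for Mcm7. Among mitosis genes, compared with the profile of the others, r was highest for Top2a (0.98) and Cenpf (0.98) and lowest for Aurka (0.64) and Bub1b (0.70).

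Promoter sequence was examined because the mitosis genes varied together and several replication genes did not follow them. RefSeq promoter windows of 300 bases (250 before the transcription start and 50 from it, build GRCm38.p6) were found for 26 of the 31 genes, in 28 windows, and none was found for Aurkb, Ccna2, Tpx2, Kif20a and Mcm4. Exact words were searched on both strands: CCAAT for the CCAAT box, TTTGAA for the CHR element, and for E2F the word TTGGCGC, the word TTCCCGC, the word TTGCCGC and the word TTCGCGC. Words may overlap each other, as they did in 5 windows, in 2 of which (Ccnb1 and Mcm7) the overlapping words were an E2F word and CCAAT. The CHR word was found in 12 of 17 mitosis genes (70.6%), in 1 of 9 replication genes (11.1%, Mcm2) and in 20.2% of all 27025 genes with a window. An E2F word was found in 3 of 17 mitosis genes (17.6%), in 6 of 9 replication genes (66.7%) and in 10.9% of all genes. CCAAT was common to both classes, with 15 of 17 mitosis genes (88.2%) and 8 of 9 replication genes (88.9%), against 41.1% of all genes. A match is a description of letters and not a measured binding site.

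**Figure D4:**
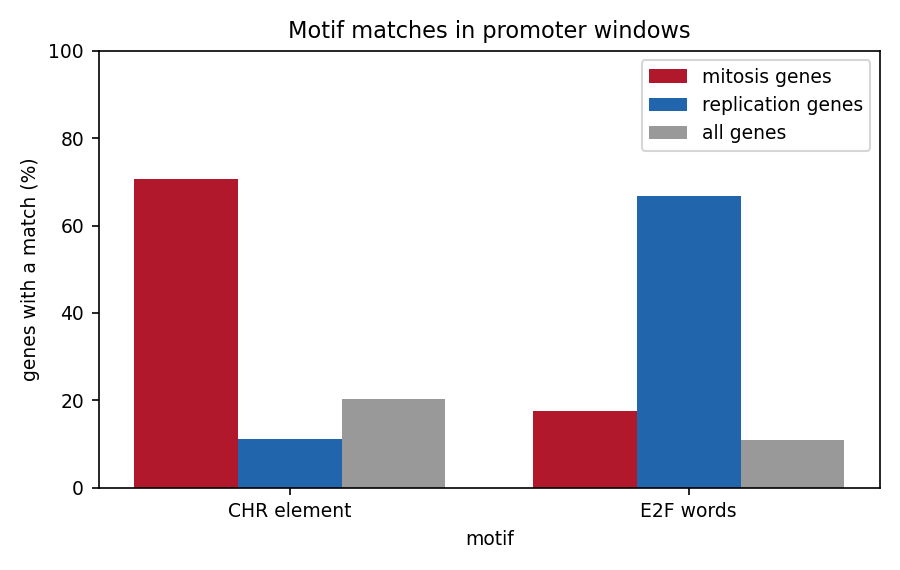
Percentage of genes with at least 1 match of the CHR word or of an E2F word in the promoter window (bars), for 17 mitosis genes, 9 replication genes and all 27025 genes. The CHR word was found in 70.6% of mitosis genes and 11.1% of replication genes, and E2F words in 17.6% and 66.7% of them.

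The windows of 3 mitosis genes with both a CHR word and CCAAT are printed here, Cdc20 at chr4:118437294-118437593 on the minus strand, Plk1 at chr7:122159185-122159484 on the plus strand and Ccnb2 at chr9:70421505-70421804 on the minus strand, beside Birc5 at chr11:117848987-117849286 on the plus strand, the gene with the largest fold change, whose window held none of the words. Each reads 5′ to 3′ along the gene, and capitals mark CHR words (TTTGAA) and CCAAT boxes (CCAAT, or ATTGG on the other strand).
Cdc20: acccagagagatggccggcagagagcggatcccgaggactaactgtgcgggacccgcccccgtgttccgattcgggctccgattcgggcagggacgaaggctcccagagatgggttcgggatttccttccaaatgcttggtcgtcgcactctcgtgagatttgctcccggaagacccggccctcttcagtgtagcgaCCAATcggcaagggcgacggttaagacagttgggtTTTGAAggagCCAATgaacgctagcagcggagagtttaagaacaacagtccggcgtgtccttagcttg
Plk1: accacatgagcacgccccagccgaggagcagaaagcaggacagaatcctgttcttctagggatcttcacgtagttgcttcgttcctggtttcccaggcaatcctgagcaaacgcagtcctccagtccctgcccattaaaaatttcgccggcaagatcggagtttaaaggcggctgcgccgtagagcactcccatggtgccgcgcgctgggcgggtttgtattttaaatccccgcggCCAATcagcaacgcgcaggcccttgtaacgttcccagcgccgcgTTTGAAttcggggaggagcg
Ccnb2: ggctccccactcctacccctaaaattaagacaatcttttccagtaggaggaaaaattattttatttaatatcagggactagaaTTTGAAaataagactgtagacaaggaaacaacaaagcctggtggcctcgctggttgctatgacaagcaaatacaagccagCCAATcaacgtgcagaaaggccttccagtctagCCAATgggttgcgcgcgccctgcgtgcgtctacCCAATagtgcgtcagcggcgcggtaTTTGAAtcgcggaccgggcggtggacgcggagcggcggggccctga
Birc5: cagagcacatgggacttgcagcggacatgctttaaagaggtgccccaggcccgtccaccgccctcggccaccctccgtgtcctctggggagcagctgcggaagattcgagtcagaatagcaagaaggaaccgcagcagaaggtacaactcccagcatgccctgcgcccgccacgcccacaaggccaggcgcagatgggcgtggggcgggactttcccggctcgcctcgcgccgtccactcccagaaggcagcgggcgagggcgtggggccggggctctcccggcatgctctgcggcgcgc

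Among replication genes, the windows of Mcm3, Mcm5 and Mcm6 held several E2F words and no CHR word. They lie at chr1:20820263-20820562 on the minus strand for Mcm3, chr8:75109259-75109558 on the plus strand for Mcm5 and chr1:128359656-128359955 on the minus strand for Mcm6, and capitals mark E2F words on either strand, which overlap where they form longer runs, and CCAAT boxes.
Mcm3: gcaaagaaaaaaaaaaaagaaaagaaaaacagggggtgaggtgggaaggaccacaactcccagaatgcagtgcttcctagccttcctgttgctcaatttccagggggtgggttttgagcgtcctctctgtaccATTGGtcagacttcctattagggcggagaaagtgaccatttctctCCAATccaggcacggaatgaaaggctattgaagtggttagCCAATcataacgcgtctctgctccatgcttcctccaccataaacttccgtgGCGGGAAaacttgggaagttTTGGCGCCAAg
Mcm5: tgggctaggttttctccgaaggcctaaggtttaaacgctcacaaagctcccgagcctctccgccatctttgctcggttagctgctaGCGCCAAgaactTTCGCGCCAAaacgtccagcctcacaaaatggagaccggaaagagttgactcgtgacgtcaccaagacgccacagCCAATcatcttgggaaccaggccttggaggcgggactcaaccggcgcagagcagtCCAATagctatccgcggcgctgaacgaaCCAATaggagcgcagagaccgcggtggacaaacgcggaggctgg
Mcm6: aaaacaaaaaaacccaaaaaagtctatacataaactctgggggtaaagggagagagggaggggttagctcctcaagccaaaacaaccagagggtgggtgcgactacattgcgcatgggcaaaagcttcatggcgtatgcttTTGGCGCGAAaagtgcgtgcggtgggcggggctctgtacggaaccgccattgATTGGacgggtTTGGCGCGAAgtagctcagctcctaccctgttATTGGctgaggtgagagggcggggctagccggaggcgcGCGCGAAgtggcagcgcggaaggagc

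Among mitosis genes, the r with the mitosis profile had a median of 0.90 over the 12 with a CHR word and 0.93 over the 5 without one. Among replication genes it had a median of 0.75 over the 6 with an E2F word and 0.61 over the 3 without one. These medians are descriptions over few genes, and the difference was not tested. Mcm5 and Mcm6, with E2F words, followed the mitosis profile, and Mcm7, also with E2F words, did not. Birc5 had no word in its window and followed the profile with an r of 0.94, and Bub1b, with a CHR word, followed it with an r of 0.70. That a word is missing says only that these letters are not in this window.

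Cd68 had 76.5, 24.4, 26.2 and 134 CPM in knockout libraries 1 to 4, against 13.5, 23.1, 64.7 and 37.9 CPM in wild-type libraries 1 to 4. Knockout mice 1 and 4 were the highest, wild-type mouse 3 came next, and the genotypes overlapped. Most proliferation genes tended to be higher where Cd68 was higher, but none passed the test over all genes. Pearson's r of log2 CPM with Cd68 over the 8 libraries was above 0 for 21 of 21 mitosis genes, with a median of 0.64 (from 0.14 for Aurka to 0.91 for Bub1b), and for 8 of 10 replication genes, with a median of 0.52 (from -0.11 for Mcm4 to 0.74 for Mcm6). The exceptions were Mcm4 and Mcm7, whose r was above 0 (0.27 and 0.12) when libraries were scaled by total counts. Of all 14492 genes correlated, 47.2% had an r above 0, and 58.2% with that scaling. With exact two-sided permutation p-values adjusted by Benjamini-Hochberg over those 14492 genes, 0 proliferation genes passed 0.05, where 216 genes passed with a positive r (1.49%). At an unadjusted exact p under 0.05, 9 did, 8 of mitosis (Bub1b, Aurkb, Cdk1, Ccna2, Birc5, Cdc20, Tpx2 and Cenpe) and Mcm6 of replication, that is 29.0% of the 31 genes against 8.25% of all genes. By Spearman's rho the count was 4, or 12.9%, against 7.33% of all genes.

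Bub1b had the closest relation. Its Pearson's r with Cd68 was 0.91 (exact permutation p = 0.00159, adjusted p = 0.0673) and its Spearman's rho 0.95 (exact permutation p = 0.00114, adjusted p = 0.0719), and without knockout libraries 1 and 4, the pair farthest from the median of Cd68, r was 0.79. Aurkb followed with an r of 0.85 (exact permutation p = 0.0105, adjusted p = 0.173) and a rho of 0.79 (exact permutation p = 0.0279, adjusted p = 0.294), and without that pair r was 0.73. These were among the mitosis genes with the smallest fold changes between genotypes, 0.25 for Bub1b and 0.18 for Aurkb on the log2 scale. Other mitosis genes did not show that order. Birc5, Tpx2 and Cdc20 had log2 fold changes of 0.91, 0.88 and 0.83 and an r with Cd68 of 0.79, 0.74 and 0.79. Aurka had a log2 fold change of 0.45 and the lowest r of the mitosis genes, 0.14. Plk1 and Kif20a had log2 fold changes of 0.85 and 0.58 and weaker relations with Cd68. For Plk1 r was 0.41 (exact permutation p = 0.308, adjusted p = 0.718), rho 0.40 (exact permutation p = 0.327) and r without that pair 0.097. For Kif20a r was 0.32 (exact permutation p = 0.441, adjusted p = 0.809), rho 0.43 (exact permutation p = 0.299) and r without that pair -0.28. Among replication genes Mcm6 had an r of 0.74 (exact permutation p = 0.0407, adjusted p = 0.319), a rho of 0.62 (exact permutation p = 0.115) and an r of 0.53 without that pair. Rrm1 had an r of 0.14 (exact permutation p = 0.722, adjusted p = 0.932), a rho of 0.17 (exact permutation p = 0.703) and an r of -0.47 without that pair.

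For most of these genes r with Cd68 was lower without knockout mice 1 and 4. These libraries lie farthest from the median of Cd68, so leaving them out narrows its range, which by itself can lower r. With only 1 of them left out the mitosis median was 0.57 (knockout library 1) or 0.59 (knockout library 4). Without that pair the median r was 0.31 over mitosis and 0.15 over replication genes, and 1 gene, Bub1b, kept an unadjusted exact permutation p under 0.05 (3.23% of the 31 genes, against 4.76% of all genes). Leaving out single libraries gave 3 such genes without knockout library 1, without knockout library 4 or without wild-type library 1, where 7.11%, 6.03% and 7.39% of all genes passed. It gave 4 without wild-type library 3 (6.69% of all genes) and 17 without knockout library 2 (8.90% of all genes). The median over replication genes was 0.25 without knockout library 4. Deviations from the genotype means pooled both genotypes and kept knockout mice 1 and 4. On these deviations r was above 0 for 20 of 21 mitosis genes, median 0.57, and for 8 of 10 replication genes, median 0.45. An unadjusted exact permutation p under 0.05 was reached by 4 genes (Bub1b, Birc5, Aurkb and Cdc20). That is 12.9% of the 31 genes, against 6.98% of all genes. None passed an adjusted p of 0.05, and the smallest adjusted exact permutation p among the 31 genes was 0.231. Permuting only within genotypes leaves few pairings, and no exact permutation p of any gene was under 0.00347. Of all 14492 genes 0 passed, with a smallest adjusted exact permutation p of 0.21, so the lack of a call says little about the 31 genes. Without the pair of libraries with epithelial genes the medians were 0.76 and 0.70, and 7 proliferation genes had an unadjusted exact permutation p under 0.05, against 6.95% of all genes. With the mean of 15 macrophage markers in place of Cd68 the medians were 0.61 and 0.46.

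Knockout library 2 stood off the relation. At 24.4 CPM of Cd68, close to the 26.2 CPM of knockout library 3 and the 23.1 CPM of wild-type library 2, its mitosis mean was 1.90 on the log2 CPM scale, against 1.13 in knockout library 3 and 1.09 in wild-type library 2. This is the library with the most epithelial transcripts, and the part of that tissue in its proliferation transcripts was not tested. The mitosis means lay in a low range of 0.93 to 1.14, in knockout mouse 3 and wild-type mice 1, 2 and 4, and a high range of 1.76 to 2.21, in knockout mice 1, 2 and 4 and wild-type mouse 3. With only 4 libraries in each range, no correlation with Cd68 is given within a range.

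**Figure D5:**
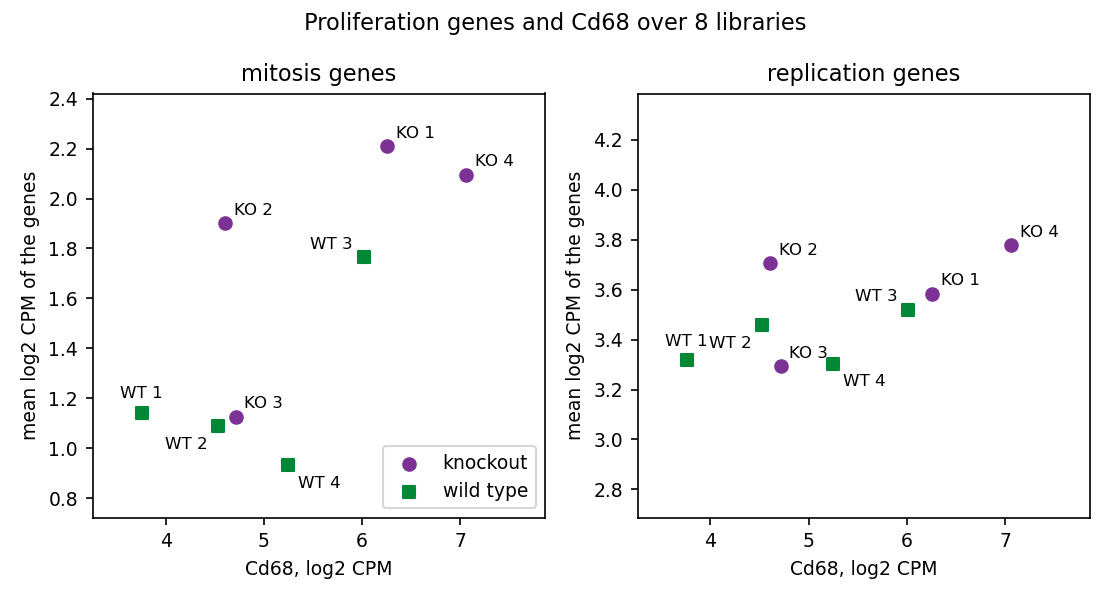
Mean log2 CPM of the mitosis genes (left) and the replication genes (right) against Cd68 in log2 CPM, 1 point per library, knockout as circles and wild type as squares. Knockout libraries 1 and 4 and wild-type library 3 lie at the upper right of the mitosis panel, and knockout library 2 lies high at a Cd68 level shared with knockout library 3 and wild-type library 2.

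Marker lists of cell types differed in fold change between genotypes and in how they moved with the mitosis genes. Macrophage markers summed to 816 to 3887 CPM in knockout and 695 to 1803 CPM in wild type, with 14 of 15 above 0 in log2 fold change, none called, a median of 0.65 and no marker at 0. T and NK cell markers were above 0 for 8 of 8, with a median of 0.47, and smooth muscle markers were below 0 for 7 of 8, with a median of -0.47. Mesothelial markers were below 0 for 6 of 6 (median -0.39), endothelial for 5 of 7 (-0.09) and B cell for 4 of 5 (-0.19). Adipocyte markers were above 0 for 6 of 10 (0.02). Epithelial markers were above 0 for 4 of 5 (1.54), the list in which knockout library 2 and wild-type library 3 stood apart. None of these lists held a called gene, and 2 smooth muscle markers were lower at an unadjusted p under 0.05. Of all 14493 genes tested, 53.1% were above 0, and 154 were lower at that p. Over the 8 libraries the median r of a marker list with the mitosis profile, as a description, was 0.65 for macrophages (14 of 15 markers above 0), 0.51 for progenitors and fibroblasts (7 of 7), 0.45 for epithelium (5 of 5), 0.18 for mesothelium (6 of 6), 0.12 for T and NK cells (3 of 4), -0.23 for endothelium (1 of 7 above 0), -0.23 for smooth muscle (2 of 8), -0.46 for adipocytes (1 of 10) and -0.53 for B cells (0 of 5). Over all genes at a mean of 1 CPM or more it was -0.04. Lum, the fibroblast proteoglycan lumican, had 138, 73.9, 38.8 and 94.6 CPM in knockout libraries 1 to 4, against 34.9, 40.3, 94.1 and 50.4 CPM in wild-type libraries 1 to 4, and had an r of 0.92 with the profile. Plin1, the coat protein of lipid droplets, had 1290, 1453, 2043 and 1326 CPM in knockout libraries 1 to 4, against 1789, 1585, 1316 and 1696 CPM in wild-type libraries 1 to 4, lowest in the 4 mice of the high range of mitosis means, and had an r of -0.85. Lum had the highest r of the progenitor markers, which ran from 0.17 to 0.92. Plin1 had the lowest r of the adipocyte markers, which ran from -0.85 to 0.15. Progenitor markers summed to 1020 to 2000 CPM in knockout and 1236 to 1695 CPM in wild type. In log2 fold change 4 of 7 progenitor markers were above 0, with a median of 0.16 and none called. The part of each cell type in the proliferation transcripts was not tested.

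Of the genes outside the 31, with a mean level of 1 CPM at least, the ones whose pattern was most like the mitosis profile were Melk (r of 0.98), Kif4 (0.96), Foxm1 (0.96), 2810417H13Rik (0.96), Ccdc112 (0.95), Spc24 (0.95), Ckap2l (0.95), Rcc1 (0.95), Slc25a13 (0.95) and D2Ertd750e (0.95), the 10 with the highest Pearson's r over the 8 libraries. On deviations from the genotype means their r was 0.92 to 0.97. Foxm1, a transcription factor of late cell cycle genes, had 3.96, 4.01, 2.74 and 4.48 CPM in knockout libraries 1 to 4, against 2.48, 2.39, 3.35 and 2.07 CPM in wild-type libraries 1 to 4. Knockout mice 1, 2 and 4 were above all wild-type mice, and its log2 fold change was 0.56.

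Wider lists of cell cycle genes showed the same order of classes. Of 65 further mitosis genes listed, 62 were tested, and of these 55 had a log2 fold change above 0 and the median was 0.46, with 9 higher and 1 lower at an unadjusted p under 0.05. Of 41 further replication genes, 29 were above 0 and the median was 0.12, with 1 higher at an unadjusted p under 0.05. Of all 14493 genes tested, 53.1% were above 0. At an unadjusted p under 0.05, 169 of them were higher (1.17%) and 154 lower. None of either list was called over all genes. Those with the smallest p were Depdc1b, Cdca2, D2Ertd750e and Kif2c of mitosis, and Rfc4, Pole2, Pold1 and Cdt1 of replication. Cdca2, a chromatin phosphatase subunit of late mitosis, had 1.74, 3.66, 1.07 and 1.90 CPM in knockout libraries 1 to 4, against 0.722, 0.725, 1.09 and 0.608 CPM in wild-type libraries 1 to 4, a log2 fold change of 1.41 with overlap only between knockout mouse 3 and wild-type mouse 3. Rfc4, a subunit of the loader of the Pcna clamp, had 10.2, 12.2, 7.35 and 9.88 CPM in knockout libraries 1 to 4, against 6.56, 6.98, 6.16 and 6.33 CPM in wild-type libraries 1 to 4. Every knockout mouse was above every wild-type mouse, knockout mouse 3 by the least, and the log2 fold change was 0.61. That pattern was found in 0.621% of all genes tested.

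The lists of cycle regulators, of G1 cyclins and kinases, and of inhibitors of division had medians near 0. Of all genes tested, 53.1% had a log2 fold change above 0. The 17 listed transcriptional regulators of the cycle had a median log2 fold change of 0.05, with 13 above 0. Apart from Foxm1, E2f8, a repressor made in S phase, averaged 1.32 ± 0.677 CPM in knockout and 0.727 ± 0.372 CPM in wild type, and Mybl2, a partner of the complex that activates late genes, 0.930 ± 0.185 CPM in knockout and 0.618 ± 0.136 CPM in wild type (SD, n = 4 each). Rb1, the retinoblastoma protein, had 89.8 to 99.3 CPM in knockout and 96.6 to 125.5 CPM in wild type. The 6 G1 cyclins and kinases had a median of 0.05, with 5 above 0, and the 11 inhibitors of division a median of 0.02, with 7 above 0. Cdkn1c, the inhibitor p57, averaged 42.0 ± 12.7 CPM in knockout and 25.8 ± 13.4 CPM in wild type, and Cdkn2a, the locus of p16 and p19, 0.941 ± 0.427 CPM in knockout and 1.24 ± 0.162 CPM in wild type (SD, n = 4 each). Of 14 listed genes of macrophage growth and recruitment, 11 were tested and 10 had a log2 fold change above 0, with a median of 0.27. Il34, a ligand of the macrophage growth factor receptor, had 31.6, 32.1, 36.5 and 37.4 CPM in knockout libraries 1 to 4, against 30.3, 23.9, 30.9 and 28.8 CPM in wild-type libraries 1 to 4, so the groups did not overlap, narrowly. Of all genes tested, 0.621% had every knockout mouse above every wild-type mouse. Csf2, Il4 and Il13 were at 0.168 CPM or less in every library and were not tested. None of these genes was called over all genes.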

How the data were processed

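Total RNA of whole perigonadal fat from 8 mice was sequenced on an Illumina instrument, as the labels' protocols state. Each mouse has a table of raw counts as the authors deposited them, in whole numbers by gene symbol. STAR 2.4.0g1, FastQC 0.11.2, featureCounts, Cufflinks, edgeR and the mm10 build are named, per the submitters' processing notes, without roles. Whether counting used strand is not given in the sources used here. The authors' deposited annotation gave gene positions, exonic lengths and the exonic bases that symbols share. Groups came from the labels, each library being a separate mouse.

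Genes were kept with filterByExpr and compared, knockout over wild type, in edgeR 4.0.16 (R 4.3.3) with TMM scaling (factors 0.966 to 1.05), robust dispersion, the quasi-likelihood F test and Benjamini-Hochberg adjustment over 14493 genes, at a threshold of 0.05. The common biological coefficient of variation was 0.301. CPM and log2 CPM (prior count of 2) were computed from the deposited counts with TMM-scaled library sizes. Each gene was correlated with Cd68 over the 8 libraries, with exact two-sided permutation p-values over all pairings of libraries, or over those within genotypes for deviations from the genotype means. Promoter windows came from RefSeq. The procedures were tested on simulated data.

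The members and lists were chosen with earlier results of these data known, so lists are described by counts and medians without a test. Named beside the 31 genes were up to 4 tested genes of each further list with the smallest p, the 10 genes most like the mitosis profile, and marker lists as counts and sums. Further genes described with values outside that rule (Cuzd1, Cdh1, Krt5, Krt8, Plin1, Csf2, Il4 and Il13) were chosen after their values were seen. Other settings tried were total counts and median-ratio size factors for scaling, no filter on low counts, a stricter filter of 1 CPM in 4 libraries, DESeq2 1.42.0, voom in limma 3.58.1, non-robust dispersion, a replicate block, each library left out, and the pair of libraries with epithelial genes left out. With 46444435 counts or more per library, differences between mice rather than counting set the precision of all but the genes with the fewest counts. Libraries of the same genotype all differed by more than sampling noise (chi-square per degree of freedom of 66.1 or more). The targeted gene is not reported here.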

Additional observations from a re-analysis of the deposited data

Results flagged for a closer look

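Of 134 groups of 4 libraries examined for the named genes, 4 held a library far from the other 3 of its genotype. Chance alone flags about 1 group in 20, or 6.7 of these, so the 4 are no more than chance gives. Melk, a mitotic kinase whose pattern was the most like that of the mitosis genes, was at -0.080 log2 CPM in knockout library 3, against 1.08 to 1.24 in the other knockout libraries. D2Ertd750e was at 1.36 log2 CPM in wild-type library 3, against 0.56 to 0.65 in the other wild-type libraries. Both follow the mitosis genes, which were low in knockout mouse 3 and high in wild-type mouse 3. Pold1, the catalytic subunit of DNA polymerase delta, was at 4.01 log2 CPM in knockout library 4, against 3.61 to 3.67 in the other knockout libraries. Ccnd3, a D-type cyclin of G1, was at 7.79 log2 CPM in wild-type library 2, against 7.24 to 7.31 in the other wild-type libraries. The cause of each was not tested. None of the 31 proliferation genes was flagged in this way.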

How the results depend on the processing

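The number of genes called over all genes was 2, 17 with DESeq2, and 0 with total counts, without a low-count filter, with voom, with the replicate block, with any 1 library left out (0 to 0) and without the pair of libraries with epithelial genes. No proliferation gene passed the adjusted threshold in any setting. The number at an unadjusted p under 0.05 was 6, against 10 with DESeq2, 0 with the replicate block, 11 without the epithelial pair and 0 to 18 with a library left out. The share of all genes higher at that p was 1.17%, against 1.5%, 0.697%, 3.89% and 0.689% to 2.36% in those settings. The replicate numbers were checked as a possible pairing on deviations of log2 CPM from the genotype means. Same-numbered libraries correlated at -0.32 to 0.12 and differently numbered ones at -0.34 to 0.40, so the numbers gave no sign of a pairing. With the block the medians were 0.65 for mitosis and 0.17 for replication genes. With a library left out the median log2 fold change was 0.53 to 0.93 for mitosis genes and 0.10 to 0.29 for replication genes. Every proliferation gene was above 0 under every scaling. With a library left out, Aurkb was at -0.064 to 0.49, Rrm1 at -0.027 to 0.13 and Pcna at -0.031 to 0.15.

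For Cd68, 9 genes had an unadjusted exact permutation p under 0.05, against 4 by Spearman's rho, 4 on deviations, 1 without the 2 libraries farthest from the median of Cd68, and 3 to 17 with a library left out. The median r of mitosis genes was 0.76 without the epithelial pair, 0.31 without the 2 farthest libraries and 0.57 to 0.78 with a library left out. That of replication genes was 0.33 by rho, 0.70 without the epithelial pair, 0.15 without the 2 farthest and 0.25 to 0.69 with a library left out. Without the 2 farthest, r was -0.011 for Aurka, -0.28 for Kif20a, -0.020 for Prc1 and -0.47 for Rrm1, and on deviations it was -0.093 for Aurka. Mcm4 and Mcm7 turned positive with total counts (0.27 and 0.12), which moved the median r of all genes to 0.10 from -0.04, and without the epithelial pair (0.095 and 0.23). With a library left out, r was -0.072 to 0.73 for Aurka, -0.083 to 0.35 for Rrm1, -0.38 to 0.12 for Mcm4 and -0.38 to 0.18 for Mcm7. The cause of these changes was not tested.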
